A study of Mus musculus with 12 samples.

Results

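Mitochondria hold their own protein-folding and protein-degrading machinery, and 10 nuclear genes of it were followed here across NIH-3T3 cells with and without intact Crls1: Hspa9, Dnaja3, Hspd1, Hspe1, Trap1, Lonp1, Clpx, Clpp, Afg3l2 and Spg7. They were picked by name, as the rows of the deposited expression table whose identifiers carry these symbols in the GENCODE M21 annotation, so the choice used no measured value. The table holds 54392 gene rows, 15073 of which were tested, and all 10 genes were among those tested. NIH-3T3 is an immortalised mouse embryonic fibroblast line, and Crls1 encodes cardiolipin synthase, which makes cardiolipin, the signature phospholipid of the inner mitochondrial membrane. The groups are Crls1KO1, Crls1KO2 and Crls1KO3, below KO1, KO2 and KO3, and Crls1WT, below WT, with 3 libraries each. Per the labels' protocols, cells received a Cas9 plasmid encoding a guide RNA against Crls1, were sorted singly on GFP, and had loss of Crls1 alleles checked by sequencing genomic DNA. Each KO line is thus 1 clone, and what distinguishes clones and what distinguishes Crls1 genotypes cannot be told apart within a single clone. The same culture medium, which carries glucose, pyruvate and uridine, served all groups. The labels do not say whether WT cells were sorted too, or whether the libraries of a group came from separate cultures, so the p-values speak only to variation among these libraries, and this may be technical.

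Proteins enter the matrix unfolded through import channels. The Hsp70 of the matrix, with its J-protein partners, pulls them in and keeps them soluble, and the Hsp60 and Hsp10 chaperonin encloses them while they fold. Proteins that cannot be folded are degraded by ATP-driven proteases, LONP1 and the CLPXP complex in the matrix and the m-AAA protease in the inner membrane. In the mitochondrial unfolded protein response, cells raise transcripts of these chaperones and proteases, a response tied in mammals to the transcription factors ATF5, CHOP (Ddit3), C/EBP beta and ATF4.

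Crls1 itself was lower in every clone. It had 209, 209 and 213 normalized counts in KO1, 336, 338 and 374 in KO2, 363, 372 and 408 in KO3, and 740, 873 and 834 in WT, a log2 fold change of -1.95, -1.22 and -1.09 for the 3 clones. Depth ran from 32929242 to 42211807 reads a library. WT library 1 stood apart from the other WT libraries (chi-square per degree of freedom 52.8 and 55.6, against 17.2 between the other two). Fibroblast markers, with 9 of 10 tested and Lum at 0, were abundant in sum throughout. Their summed normalized count was 801495 to 838361 in KO1, 898776 to 943383 in KO2, 858252 to 877266 in KO3 and 830200 to 911768 in WT. Single markers moved in both directions. Col3a1 averaged 7939 in KO1, 884 in KO2, 3664 in KO3 and 148 in WT. In the same order Pdgfra averaged 9432, 26299, 7582 and 7355, and Pdgfrb 3809, 4471, 3779 and 5347. The epithelial list, with 2 of 5 markers tested, summed to 344 to 371 in KO1, 192 to 218 in KO2, 305 to 327 in KO3 and 96.4 to 108 in WT. Its tested markers moved in opposite directions: Cdh1 averaged 350 in KO1, 185 in KO2, 307 in KO3 and 17.8 in WT, and Krt8 averaged 5.26 in KO1, 9.59 in KO2, 4.41 in KO3 and 84.8 in WT. Neural markers, 2 of 4 tested, summed to 209 to 268 in KO1, 175 to 200 in KO2, 124 to 200 in KO3 and 17.6 to 32.1 in WT. Skeletal muscle markers, 2 of 5 tested and Myod1 at 0, summed to 155 to 209 in KO1, 203 to 253 in KO2, 159 to 164 in KO3 and 82.3 to 112 in WT. This sum was mostly Des, which averaged 172 in KO1, 228 in KO2, 154 in KO3 and 82.4 in WT. Acta1 went the other way, with averages of 4.14, 5.53, 7.05 and 12.4 in the same order. Endothelial markers, 3 of 4 tested, summed to 182 to 232 in KO1, 26.1 to 87.9 in KO2, 27.2 to 74.6 in KO3 and 21.2 to 35.2 in WT. Immune markers, 3 of 5 tested, summed to 53.1 to 79.2 in KO1, 13.4 to 17.7 in KO2, 5.33 to 9.65 in KO3 and 40.4 to 51.7 in WT. They did not move as a set. Ptprc averaged 32.3 in KO1, 0.311 in KO2, 1.29 in KO3 and 0.345 in WT. In the same order Itgam averaged 22.9, 8.67, 5.49 and 40.8, and Adgre1 12.5, 6.39, 0.292 and 5.51. The part of any such cells in the results was not tested. In bulk RNA, fewer cells of a type and less RNA per cell cannot be told apart.

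The 10 genes did not move as a block. In KO1, 5 rose and 2 fell at a limma adjusted p under 0.05, where 52.3% of all genes tested passed (26.9% higher, 25.4% lower). In KO2, 2 rose and 6 fell, against 60.4% of all genes (29.9% higher, 30.5% lower). In KO3, 5 rose and 2 fell, against 54.1% of all genes (26.8% higher, 27.3% lower). With so many genes passing in each clone, the 7 or 8 of 10 called here stand not far above the background. The median log2 fold change of the 10 genes was 0.16 in KO1, -0.19 in KO2 and 0.35 in KO3, beside 0.02, 0.00 and 0.00 over all genes tested. Their median size of change, sign aside, was 0.25, 0.31 and 0.38, beside 0.33, 0.43 and 0.36 over all genes tested.

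Across the clones, 6 of the 10 were called in all 3, beside 29.9% of genes tested. Dnaja3 and Spg7 were higher in all 3 clones, as were 12.9% of genes tested, and Hspd1 and Clpx were lower in all 3, as were 13.3%. Lonp1 and Hspa9 were called in opposite directions, higher in KO1 and KO3 and lower in KO2, which 8.38% of genes tested were in some pair of clones. Hspe1, Afg3l2 and Trap1 were called in 1 or 2 clones, and Clpp in none. Together the 10 genes took 0.238% to 0.249% of the reads in KO1, 0.166% to 0.187% in KO2, 0.289% to 0.302% in KO3 and 0.226% to 0.248% in WT. KO2 was the lowest group and KO3 the highest, with no overlap between them or with WT, while KO1 overlapped WT.

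**Figure D1:**
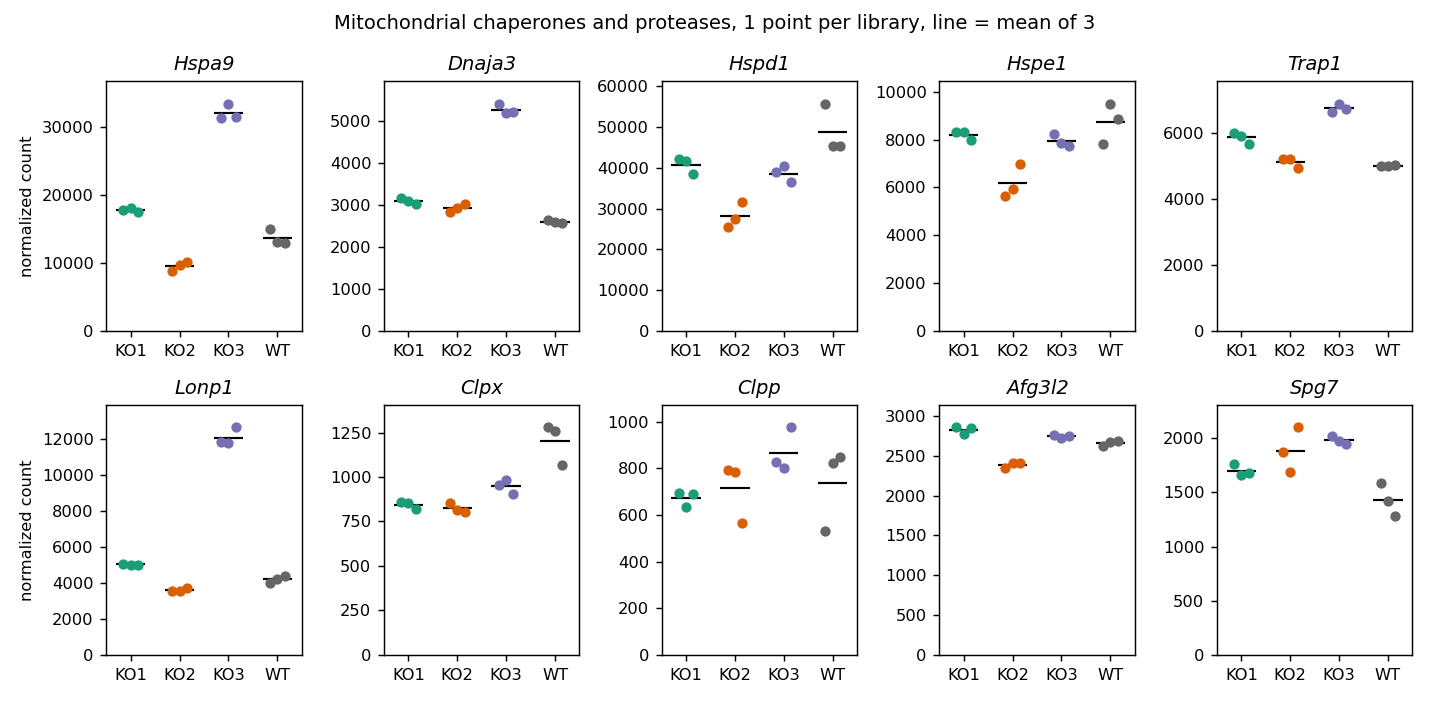
Normalized count of each of the 10 genes (vertical axis, from 0) in each library (points) of KO1, KO2, KO3 and WT, with a line at the mean of 3 libraries. Hspa9, Dnaja3 and Lonp1 stand highest in KO3, Hspd1 and Clpx are below WT in every clone, and the Clpp points of each clone overlap those of WT.

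Hspa9 encodes mortalin, the Hsp70 of the matrix and the motor of protein import (GRCm38, chr18:34937414-34954357, minus strand). Its normalized counts were 17805, 18123 and 17543 in KO1, 8830, 9728 and 10128 in KO2, 31351, 33372 and 31367 in KO3, and 15001, 13022 and 12972 in WT. KO3 was far above WT, KO1 modestly above it and KO2 below it, and no clone overlapped WT. The log2 fold change was 0.39 in KO1 (SE 0.07, adjusted p = 4.05e-04), -0.51 in KO2 (adjusted p = 2.97e-05) and 1.23 in KO3 (adjusted p = 1.29e-08). After subtracting the median change of the 40 tested genes nearest on the chromosome, the values were 0.18, -0.58 and 1.08.

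Dnaja3 encodes a J-protein, a co-chaperone that delivers substrates to the matrix Hsp70 and stimulates its ATPase (GRCm38, chr16:4639989-4707695, plus strand). Dnaja3 had 3177, 3114 and 3032 normalized counts in KO1, 2835, 2936 and 3027 in KO2, 5420, 5197 and 5232 in KO3, and 2650, 2603 and 2573 in WT. Every clone library lay above every WT library, and KO3 averaged 2.03 times WT. Against WT this was a log2 fold change of 0.25 in KO1 (SE 0.04, adjusted p = 4.25e-04), 0.17 in KO2 (adjusted p = 5.40e-03) and 1.02 in KO3 (adjusted p = 1.57e-09). Its 38 nearest tested genes had median log2 fold changes of 0.21, 0.27 and 0.16 in the 3 clones, and relative to them Dnaja3 stood at 0.04 in KO1, -0.10 in KO2 and 0.86 in KO3. The direction in KO2 therefore turned when set against the neighbours. An upstream Dnaja3 isoform spans Vasn, a gene on the same strand with which Dnaja3 shares 134 stretches of 31 bases. Vasn moved the other way in KO3, with a log2 fold change of -0.81, and was at 0.06 in KO1 and -0.20 in KO2. Coro7, on the opposite strand, also overlaps Dnaja3 and shares 126 such stretches with it. Its log2 fold change was -0.05 in KO1, 0.23 in KO2 and 0.19 in KO3, none called.

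The promoter of Dnaja3 is shown because the gene was higher in all 3 clones. These are the 150 bases before the RefSeq start (GRCm38.p6, chr16:4683920-4684069, plus strand), with a match to the NRF1 motif in capitals.
Dnaja3: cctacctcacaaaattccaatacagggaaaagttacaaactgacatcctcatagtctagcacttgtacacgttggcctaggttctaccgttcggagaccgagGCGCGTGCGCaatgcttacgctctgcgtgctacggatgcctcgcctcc
NRF1 is a transcription factor of nuclear genes for mitochondrial proteins. The motif, GCGCA and GCGC parted by 1 base, searched on both strands, was found in 3 of the 8 genes with a RefSeq promoter window (Dnaja3, Hspd1 and Spg7) and in 4.6% of all 32851 windows of the same length, from 250 bases before to 50 after a start.

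As a pair, Hspa9 and Dnaja3 differed most from the WT balance in KO2, where Hspa9 fell and Dnaja3 rose. The log2 ratio of Hspa9 to Dnaja3 in normalized counts averaged 2.52 in KO1, 1.70 in KO2, 2.60 in KO3 and 2.39 in WT. The difference from WT was 0.13 in KO1 (exact permutation p = 0.2), -0.68 in KO2 (exact permutation p = 0.1) and 0.21 in KO3 (exact permutation p = 0.1). With 3 libraries against 3, 0.1 is the smallest p this two-sided test can give, and it marks groups that do not overlap. Of 12 such ratio tests over 4 partner pairs, none passed after adjustment (adjusted exact permutation p of 0.2 to 0.6).

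Hspd1 encodes Hsp60, the barrel of the mitochondrial chaperonin, and Hspe1 encodes Hsp10, its lid. They lie head to head on mouse chromosome 1 (GRCm38, Hspd1 chr1:55077835-55088243 on the minus strand, Hspe1 chr1:55088132-55091307 on the plus strand), their annotated ends overlapping by 112 bases. A stretch that lies in the promoter window of Hspe1 and in a RefSeq window of Hspd1 is shown, since the pair is set side by side here. It is 30 bases, from 95 to 66 bases before the RefSeq start of Hspe1 (GRCm38.p6, chr1:55088053-55088082, plus strand of the Hspe1 gene), with a pair of overlapping matches to the heat shock element in capitals.
Hspe1 and Hspd1: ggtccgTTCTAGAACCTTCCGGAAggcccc
Heat shock factors bind such elements. The element, TTC, GAA and TTC each parted by 2 bases, or its reverse complement, was found in 0.603% of all promoter windows. Among the 8 genes with a window it was in Hspd1 and Hspe1 alone, in this same shared stretch. For Hspd1 the stretch lies inside the annotated gene, in the window chr1:55087883-55088182. The window around the annotated Hspd1 start (chr1:55088194-55088493) held no match.

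Hspd1 fell in every clone. Its normalized counts were 42079, 41714 and 38520 in KO1, 25613, 27460 and 31582 in KO2, 38841, 40395 and 36469 in KO3, and 55645, 45303 and 45276 in WT. All 9 clone libraries lay below all WT libraries, with KO2 the lowest group and WT library 1 the highest point. The log2 fold change was -0.25 in KO1 (SE 0.09, adjusted p = 0.0400), -0.79 in KO2 (adjusted p = 1.38e-05) and -0.33 in KO3 (adjusted p = 9.75e-03). The call in KO1 rested on WT library 1: without it the log2 fold change was -0.15 (adjusted p = 0.126). That call was also lost without any 1 KO1 library, KO2 library 2 or KO3 library 1, and under quantile normalization (-0.07). Relative to its 40 nearest tested genes Hspd1 stood at -0.08 in KO1, -0.63 in KO2 and -0.19 in KO3.

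Hspe1 fell in KO2, with normalized counts of 5626, 5951 and 6972, against 7829, 9494 and 8866 in WT. It had 8307, 8305 and 7999 in KO1 and 8213, 7842 and 7748 in KO3, which overlapped WT. For Hspe1 the log2 fold change was -0.50 in KO2 (SE 0.08, adjusted p = 1.95e-04). It was -0.09 in KO1 (adjusted p = 0.408) and -0.13 in KO3 (adjusted p = 0.189), and the KO3 value passed the test without WT library 1 (-0.21, adjusted p = 0.0317). The log2 ratio of Hspd1 to Hspe1 averaged 2.31 in KO1, 2.19 in KO2, 2.28 in KO3 and 2.48 in WT. The difference from WT was -0.17 in KO1 (exact permutation p = 0.6), -0.29 in KO2 (exact permutation p = 0.1) and -0.20 in KO3 (exact permutation p = 0.3), and without WT library 1 the 3 differences were 0.01, -0.11 and -0.02. Both transcripts have processed copies elsewhere in the genome: Hspd1 shared 50.1% of its 31-base stretches with 19 other genes and Hspe1 24.8% with 7. Reads may therefore be split among copies, but the highest of these copies averaged 17.0 normalized counts for Hspd1 and 0.875 for Hspe1.

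Trap1 encodes the Hsp90 of mitochondria (GRCm38, chr16:4039971-4077827, minus strand), 562 kb from Dnaja3. Libraries held 6015, 5916 and 5682 normalized counts of Trap1 in KO1, 5218, 5220 and 4958 in KO2, 6639, 6889 and 6718 in KO3, and 4999, 5016 and 5028 in WT. KO1 and KO3 lay wholly above WT, whose libraries were nearly equal, and KO2 overlapped WT. The log2 fold change was 0.23 in KO1 (SE 0.04, adjusted p = 6.84e-04), 0.03 in KO2 (adjusted p = 0.521) and 0.43 in KO3 (adjusted p = 3.10e-06). The 30 tested genes taken around Trap1 had medians of 0.21, 0.28 and 0.18, and relative to them Trap1 stood at 0.01 in KO1, -0.24 in KO2 and 0.25 in KO3. The span of these genes lies within that of the Dnaja3 neighbours, so the backgrounds of Trap1 and Dnaja3 share genes. Under quantile normalization Trap1 was also called higher in KO2 (0.19), and stood at 0.36 in KO1. Its promoter, shown as a gene called in KO1 and KO3, runs from 150 to 18 bases before the RefSeq start (GRCm38.p6, chr16:4077828-4077960, minus strand) and holds the palindromic cyclic AMP response element TGACGTCA, in capitals, found in 1.79% of all windows and in no other of the 8 genes.
Trap1: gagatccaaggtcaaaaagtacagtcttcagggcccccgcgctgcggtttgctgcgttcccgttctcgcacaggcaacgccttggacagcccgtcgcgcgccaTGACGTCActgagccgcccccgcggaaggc

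Among the proteases, Lonp1 had the largest change of the 10 genes. It encodes LONP1, the matrix protease that removes oxidised and misfolded proteins and controls the level of TFAM, the packaging protein of mitochondrial DNA (GRCm38, chr17:56614297-56626887, minus strand). Its normalized counts were 5075, 5022 and 5008 in KO1, 3540, 3550 and 3707 in KO2, 11851, 11766 and 12656 in KO3, and 4011, 4217 and 4404 in WT. KO3 averaged 2.87 times WT, KO1 lay a little above WT and KO2 a little below, and no clone overlapped WT. That gave a log2 fold change of 0.26 in KO1 (SE 0.05, adjusted p = 7.12e-04), -0.23 in KO2 (adjusted p = 1.47e-03) and 1.52 in KO3 (adjusted p = 1.24e-10). Under quantile normalization the KO2 value was -0.10 (adjusted p = 0.117). The 40 genes nearest to Lonp1 had a median of 0.04 in KO3, which left 1.48 for Lonp1, and no 31-base stretch of Lonp1 occurs in another annotated gene. Of the 15073 genes tested, 788 rose more than Lonp1 in KO3, 1052 more than Hspa9 and 1311 more than Dnaja3. The Lonp1 promoter is shown because of this rise, from 150 bases before to 10 after the RefSeq start (GRCm38.p6, chr17:56626894-56627053, minus strand). The capitals mark TGACGTAA, a sequence close to the cyclic AMP response element, chosen after the promoter had been read.
Lonp1: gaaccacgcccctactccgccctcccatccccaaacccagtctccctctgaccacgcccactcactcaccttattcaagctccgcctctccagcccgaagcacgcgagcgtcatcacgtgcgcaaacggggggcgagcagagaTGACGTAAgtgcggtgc
This sequence or its reverse complement TTACGTCA was found in 0.499% of all windows, and among the 8 genes in Lonp1 alone. The motif TGATGNAA (reverse complement TTNCATCA), bound by ATF4 with C/EBP partners, was in 3.97% of all windows and in none of the 8 genes, which says only that these letters are not in those windows.

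CLPXP consists of CLPX, an ATP-driven unfoldase, and CLPP, the peptidase chamber it feeds. Clpx (GRCm38, chr9:65294260-65330658, plus strand) had 862, 855 and 817 normalized counts in KO1, 856, 814 and 801 in KO2, 956, 985 and 906 in KO3, and 1278, 1261 and 1068 in WT. Every clone library was below every WT library. The log2 fold change was -0.51 in KO1 (SE 0.07, adjusted p = 1.11e-04), -0.54 in KO2 (adjusted p = 4.53e-05) and -0.34 in KO3 (adjusted p = 2.04e-03), and relative to its 40 nearest tested genes -0.30, -0.45 and -0.18. Clpp (GRCm38, chr17:56990305-56996188, plus strand, 363 kb from Lonp1) had 696, 635 and 690 in KO1, 794, 784 and 565 in KO2, 826, 799 and 975 in KO3, and 533, 824 and 848 in WT. Each clone overlapped WT, while all KO3 libraries lay above all KO1 libraries, and WT library 1 and KO2 library 3 were the lowest points. The log2 fold change of Clpp was -0.10 in KO1 (SE 0.17, adjusted p = 0.671), -0.03 in KO2 (adjusted p = 0.905) and 0.26 in KO3 (adjusted p = 0.223). The log2 ratio of Clpx to Clpp averaged 0.33 in KO1, 0.22 in KO2, 0.14 in KO3 and 0.74 in WT. The difference of Clpx to Clpp from WT was -0.41, -0.51 and -0.60 (exact permutation p of 0.2, 0.2 and 0.1), and only in KO3 did it not overlap WT. Without WT library 1 these differences were -0.15, -0.25 and -0.34.

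AFG3L2 and SPG7 (paraplegin) are among the subunits of the m-AAA protease of the inner membrane. This protease degrades unassembled membrane proteins and matures the mitochondrial ribosomal protein MRPL32. Afg3l1, a mouse paralog of Afg3l2, is described with the other proteases below. Afg3l2 (GRCm38, chr18:67404764-67449172, minus strand) had 2857, 2776 and 2856 normalized counts in KO1, 2348, 2411 and 2412 in KO2, 2762, 2721 and 2749 in KO3, and 2625, 2672 and 2688 in WT. KO2 lay below WT, and KO1 and KO3 slightly above it, without overlap. In the fit, this was a log2 fold change of 0.09 in KO1 (SE 0.04, adjusted p = 0.0879), -0.15 in KO2 (adjusted p = 5.45e-03) and 0.04 in KO3 (adjusted p = 0.386), so only the fall in KO2 passed. Under quantile normalization the KO2 value was -0.07 (adjusted p = 0.183) and the KO1 value 0.16, which passed (adjusted p = 6.76e-03). Relative to its 40 nearest tested genes, the KO2 value of Afg3l2 was -0.07.

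Spg7 (GRCm38, chr8:123062942-123097760, plus strand) rose in every clone. It had 1764, 1660 and 1677 normalized counts in KO1, 1874, 1687 and 2099 in KO2, 2022, 1972 and 1948 in KO3, and 1588, 1423 and 1282 in WT. All clone libraries were above all WT libraries, and the WT libraries were themselves spread. The log2 fold change was 0.25 in KO1 (SE 0.09, adjusted p = 0.0266), 0.40 in KO2 (adjusted p = 1.57e-03) and 0.47 in KO3 (adjusted p = 5.25e-04). The KO1 call was lost without WT library 2 (adjusted p = 0.0582), WT library 3 (adjusted p = 0.109), KO1 library 1 (adjusted p = 0.0874) or KO1 library 3 (adjusted p = 0.0544). Relative to its 40 nearest tested genes Spg7 stood at 0.13, 0.25 and 0.26. The log2 ratio of Afg3l2 to Spg7 averaged 0.73 in KO1, 0.35 in KO2, 0.47 in KO3 and 0.90 in WT. The difference from WT was -0.17 in KO1 (exact permutation p = 0.3), -0.55 in KO2 (exact permutation p = 0.1) and -0.43 in KO3 (exact permutation p = 0.1). The KO1 difference was -0.25 without WT library 1 and -0.08 without WT library 3.

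**Figure D2:**
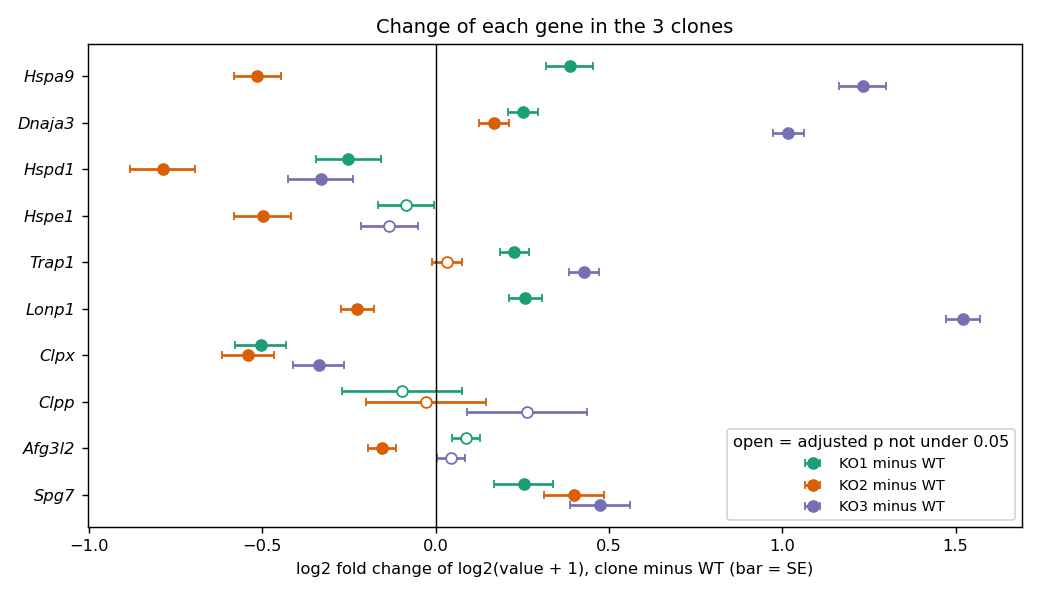
Log2 fold change of each gene (rows) against WT in KO1, KO2 and KO3 (horizontal axis, difference of log2(value + 1), bars show the SE of the limma fit), with open points where the adjusted p was not under 0.05. Lonp1, Hspa9 and Dnaja3 lie beyond 1 in KO3 only, and Lonp1 and Hspa9 lie on opposite sides of 0 in KO2 and the other clones.

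The clones also differed from each other. KO2 stood below KO1 in 6 of the 10 genes and above it in 0, where 44.4% of all genes tested differed (20.5% higher, 23.9% lower). The 6 were Hspa9 (log2 difference -0.90, adjusted p = 5.93e-07), Hspd1 (-0.54), Lonp1 (-0.48), Hspe1 (-0.41), Afg3l2 (-0.24) and Trap1 (-0.19). KO3 stood above KO1 in 4 genes and below it in 0, where 43.6% of all genes differed (20.3% higher, 23.4% lower). The 4 were Lonp1 (1.26, adjusted p = 2.08e-09), Hspa9 (0.85), Dnaja3 (0.77) and Trap1 (0.20). KO3 stood above KO2 in 8 genes and below it in 0, where 53.1% of all genes differed (26.1% higher, 27% lower). Lonp1 and Hspa9 had the largest such differences, 1.75 each (adjusted p = 7.77e-11 for Lonp1 and 1.14e-09 for Hspa9). Dnaja3 (0.85), Hspd1 (0.46), Trap1 (0.40), Hspe1 (0.37), Clpx (0.20) and Afg3l2 (0.20) followed. Relative to the chromosomal neighbours, Lonp1 stood at -0.29 and Afg3l2 at -0.08 for KO2 minus KO1, and for KO3 minus KO2 Hspd1 stood at 0.30, Trap1 at 0.60, Hspe1 at 0.19 and Afg3l2 at -0.04. For Clpx the KO3 to KO2 call was lost without KO2 library 2 or 3 or KO3 library 1 or 2. The median over the 10 genes was -0.22 for KO2 minus KO1, 0.21 for KO3 minus KO1 and 0.38 for KO3 minus KO2, beside -0.02, -0.01 and -0.01 over all genes tested. These comparisons share clones with each other and with the comparisons against WT.

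Per length of transcript, the chaperonin was the most abundant part of the machinery in WT. Hspd1 stood at 20116 ± 2467 normalized counts per kb in WT, Hspe1 at 11278 ± 1086, Hspa9 at 4482 ± 380, Trap1 at 2161 ± 6.18 and Lonp1 at 1427 ± 66.5 (SD, n = 3). Dnaja3 followed with 985 ± 14.6, Afg3l2 with 860 ± 10.6, Clpp with 748 ± 179, Spg7 with 494 ± 52.7 and Clpx with 417 ± 40.4. From Afg3l2 downwards, the WT libraries of each gene overlapped those of the next in this order. KO1 and KO2 kept this order of means. In KO3, Hspa9 reached 10505 ± 381 normalized counts per kb, beside Hspe1 at 10251 ± 318, and Lonp1 at 4097 ± 167 stood above Trap1 at 2909 ± 55.0. Lengths are those of 1 annotated transcript a gene, and with the summed length of all annotated exons the order of the 4 lowest genes was different. On that length Hspa9 in KO3 averaged 7432 per kb and Hspe1 5383, and Lonp1 2764 beside Trap1 at 2623.

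**Figure D3:**
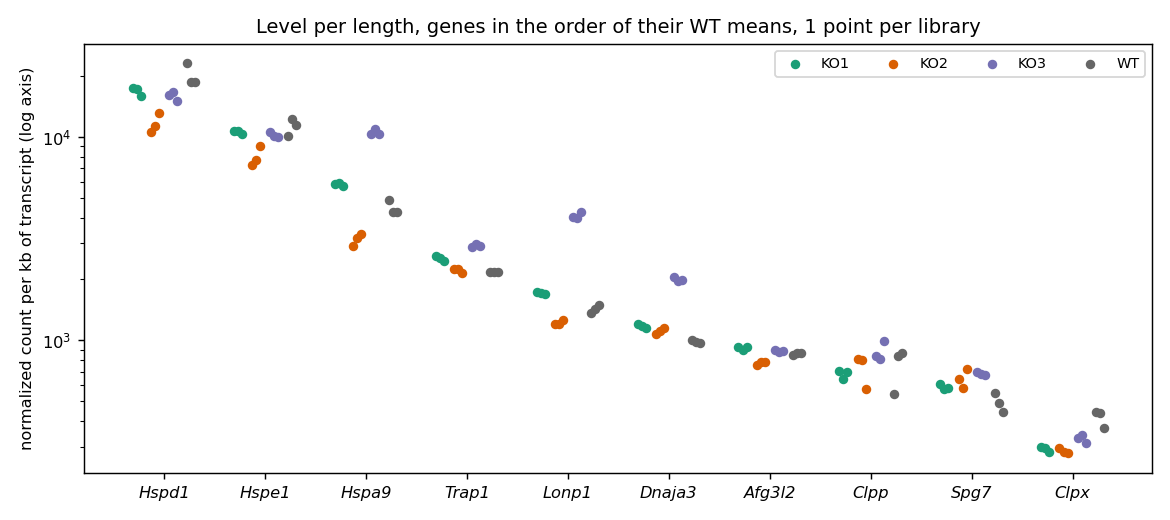
Normalized count per kb of transcript (vertical log axis) of the 10 genes in each library, coloured by group, with genes ordered by their WT mean. Hspa9 in KO3 overlaps Hspe1 with these lengths, and Lonp1 in KO3 is above Trap1, while the other groups keep the WT order.

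Hspd1 and Lonp1 had different genes as nearest profiles over the 12 libraries. Among 10545 protein-coding genes with a mean of at least 100, the genes nearest to Hspd1 were Ndc1, a nucleoporin, Bub1, a mitotic checkpoint kinase, and Spdl1, a kinetochore protein, with root mean square differences of 0.050, 0.0507 and 0.0557 in centred log2 values. Hspe1 ranked 503 (0.167). The nearest to Lonp1 were Slc6a9, a glycine transporter, Tmem45a and Mreg, with 0.0908, 0.112 and 0.113. Of the other chaperone genes, Hspa9 ranked 12 (0.203), Dnaja3 55 (0.322), Trap1 772, Hspe1 3177 and Hspd1 4676. These distances are descriptions over libraries that share their scaling and normalization. They reflect the size of a change as well as its shape, so a gene with small changes ranks far from Lonp1 whatever its direction. The SD of the centred log2 values was 0.677 for Lonp1 and 0.302 for Hspd1.

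Among the helpers of these chaperones, calls were fewest in KO2. Of 12 co-chaperones and scaffolds, KO1 held 3 higher and 2 lower, KO2 1 higher and 2 lower, and KO3 6 higher and 1 lower, with median log2 fold changes of 0.08, 0.03 and 0.31. Of all genes tested, 52.3% were called in KO1, 60.4% in KO2 and 54.1% in KO3. Grpel1, the nucleotide exchange factor of the matrix Hsp70, rose in KO1 (0.24) and KO3 (0.38) and stood at 0.12 in KO2 without passing the test. Its paralog Grpel2 likewise rose in KO1 (0.29) and KO3 (0.42) and stood at -0.11 in KO2. Clpb, a disaggregase, rose in KO1 (0.34) and KO3 (0.27), the KO3 call being lost without WT library 1 (0.18, adjusted p = 0.102) or without KO3 library 1 or 3, and stood at 0.17 in KO2. Phb, prohibitin, a scaffold around the m-AAA protease, fell in all 3 clones by log2 fold changes of -0.79, -0.50 and -0.40. Without WT library 1 its values in KO2 and KO3 were -0.33 and -0.23, and the KO3 call was lost (adjusted p = 0.135), as it was without any 1 KO3 library or KO1 library 1, and the KO2 call without KO2 library 1.

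Of 15 other mitochondrial proteases and peptidases, KO1 held 1 higher and 6 lower, KO2 4 higher and 3 lower, and KO3 6 higher and 3 lower, with medians of -0.11, 0.02 and 0.12. Over all genes tested, higher and lower calls were 26.9% and 25.4% in KO1, 29.9% and 30.5% in KO2, and 26.8% and 27.3% in KO3. Oma1, a stress-activated inner membrane protease, rose in all 3 clones, with normalized counts of 508, 465 and 442 in KO1, 592, 609 and 571 in KO2, 540, 568 and 571 in KO3, and 312, 356 and 305 in WT. No clone library overlapped WT, and the log2 fold changes were 0.54, 0.87 and 0.79. Pitrm1, which degrades cut targeting peptides, fell in all 3 by -0.61, -0.72 and -0.46. Lactb, a mitochondrial filament protein of the beta-lactamase family, fell by -0.45 in KO1, -0.20 in KO2 and -1.12 in KO3, the KO2 call being lost without WT library 1 or 2 or KO2 library 1. Afg3l1, a mouse paralog of Afg3l2, rose in KO2 (0.47) and KO3 (0.36) and stood at 0.11 in KO1. Metap1d, a mitochondrial methionine aminopeptidase, fell in KO1 (-0.31), stood at 0.10 in KO2 and rose in KO3 (0.66).

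Transcripts of 6 known substrates of these proteases were mostly uncalled, with 0 higher and 2 lower in KO1 and again in KO2, and 1 higher and 1 lower in KO3, and medians of -0.27, -0.07 and 0.14. Of all genes tested, 52.3% were called in KO1, 60.4% in KO2 and 54.1% in KO3. Tfam, whose protein LONP1 degrades, had a log2 fold change of -0.29 in KO1, -0.34 in KO2 and 0.31 in KO3. Only the KO2 value passed, and it did not without WT library 1 (-0.17), KO2 library 1 or KO2 library 2, while the KO3 value passed without WT library 1 (0.48). Noa1, a GTPase that CLPXP degrades, stood at -0.29, -0.22 and 0.13, with the first and second passing, but the KO1 call was lost without WT library 3 or KO1 library 1, and the KO2 call without any of several libraries and with other normalization factors (TMM). Mrpl32 was at -0.26, -0.10 and -0.28, none passing, and without WT library 1 all 3 passed (-0.43, -0.27 and -0.45). Alas1, named here after its values were seen, had the largest change of this list, -1.29 in KO1 (adjusted p = 1.07e-06). It was at -0.04 in KO2, uncalled, and at -0.30 in KO3, called.

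**Figure D4:**
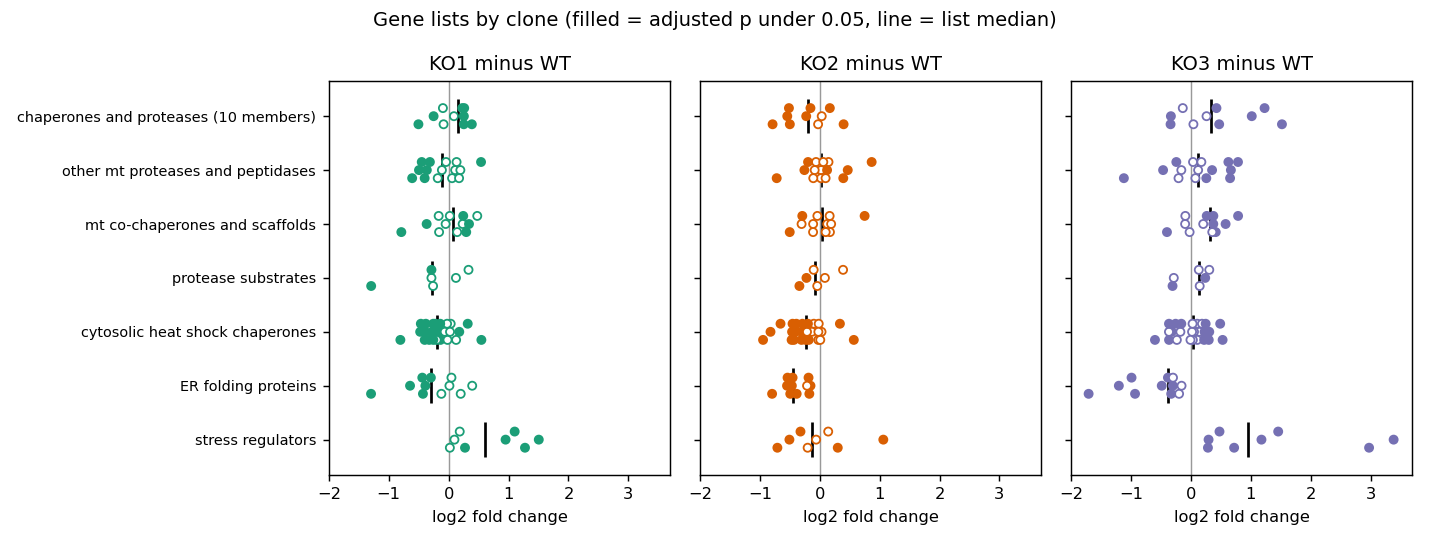
Log2 fold change against WT (horizontal axis) of the 10 genes and of the tested genes of 6 related lists (rows), 1 panel a clone, filled points at an adjusted p under 0.05 and a line at each list's median. The 10 genes have medians of 0.16, -0.19 and 0.35, the endoplasmic reticulum list lies mostly below 0 in all 3 clones, and the regulators reach 3.39 in KO3.

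Most called chaperones of the cytosol fell in KO1 and KO2 but not in KO3, and all called ones of the endoplasmic reticulum fell in each clone. Of 25 tested cytosolic heat shock chaperones (26 listed, Hspb1 at 0), KO1 held 3 higher and 15 lower, KO2 2 higher and 15 lower, and KO3 7 higher and 6 lower, with medians of -0.20, -0.23 and 0.03. Among all genes tested, 25.4%, 30.5% and 27.3% were called lower in KO1, KO2 and KO3, and 26.9%, 29.9% and 26.8% higher. Hspa4, an Hsp70 nucleotide exchange factor, fell in all 3 by -0.81, -0.95 and -0.60, and the small heat shock protein gene Hspb8 rose in all 3 by 0.32, 0.34 and 0.49. Cct4 and Cct6a, subunits of the cytosolic chaperonin, fell in KO1 (-0.28 and -0.38) and KO2 (-0.23 and -0.40) and rose in KO3 (0.22 and 0.30), and the KO2 value of Cct4 missed the threshold under quantile normalization (-0.07). Of 11 endoplasmic reticulum folding proteins, 0 rose in any clone, and 6 fell in KO1, 10 in KO2 and 8 in KO3, with medians of -0.30, -0.45 and -0.38. The disulfide isomerases Pdia6 (-1.30, -0.80 and -1.71), Pdia3 (-0.65, -0.47 and -1.20) and Pdia4 (-0.43, -0.19 and -0.93) and the calcium-binding chaperone Calr (-0.39, -0.49 and -0.99) fell in all 3 clones. Quantile normalization brought Calr to -0.16 in KO1 and -0.14 in KO2, and in KO2 also Pdia3 to -0.21, Pdia4 to -0.11 and the cytosolic Cct6a to -0.25, all still called.

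The listed regulators of these responses were all higher in KO3, and Trib3, like Lonp1 and Hspa9, was called higher in KO1 and KO3 and lower in KO2. Of 8 listed regulators, KO1 held 5 higher and 0 lower, KO2 2 higher and 3 lower, and KO3 8 higher and 0 lower, with medians of 0.61, -0.13 and 0.95. The shares of all genes tested were 26.9% higher and 25.4% lower in KO1, 29.9% and 30.5% in KO2, and 26.8% and 27.3% in KO3. Ddit3, which encodes CHOP, had normalized counts of 1290, 1129 and 1178 in KO1, 705, 648 and 709 in KO2, 4466, 4101 and 4630 in KO3, and 496, 640 and 546 in WT. Its clone libraries all lay above WT, KO3 by far the most, with log2 fold changes of 1.10, 0.30 and 2.98, the KO2 call being lost when only KO2 and WT were fitted. Trib3, a pseudokinase gene switched on by ATF4 and CHOP, had 1918, 1815 and 1875 in KO1, 395, 392 and 423 in KO2, 7415, 6585 and 6699 in KO3, and 540, 704 and 751 in WT. KO2 lay wholly below WT and the other clones wholly above it, with log2 fold changes of 1.50, -0.71 and 3.39. Atf4 had 15940, 15669 and 15738 in KO1, 9724, 11150 and 10366 in KO2, 20620, 19127 and 22108 in KO3, and 12288, 15898 and 16478 in WT, with log2 fold changes of 0.10 (adjusted p = 0.438), -0.51 and 0.48. KO2 lay below WT, KO3 above it and KO1 within its range.

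Cebpb, which encodes C/EBP beta, rose by about the same amount in each clone, by log2 fold changes of 1.27, 1.06 and 1.18, with WT library 1 the lowest point at 312 normalized counts beside 592 and 720 in the other WT libraries. Without that library its KO2 value was 0.71. Dele1, whose product carries mitochondrial stress signals to the cytosol, rose in KO1 (0.27) and KO3 (0.30) and stood at 0.14 in KO2. Atf5, named here after its values were seen, had 5408, 5561 and 5632 normalized counts in KO1, 2515, 2659 and 2309 in KO2, 7516, 7500 and 8665 in KO3, and 2247, 3111 and 3360 in WT. KO1 and KO3 lay above WT and KO2 within its range, with log2 fold changes of 0.95 (adjusted p = 3.49e-05), -0.20 (adjusted p = 0.171) and 1.46 (adjusted p = 6.58e-07). Without WT library 1 the KO2 value was -0.38, and passed. All values of regulators are transcript levels, and their proteins were not measured.

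**Figure D5:**
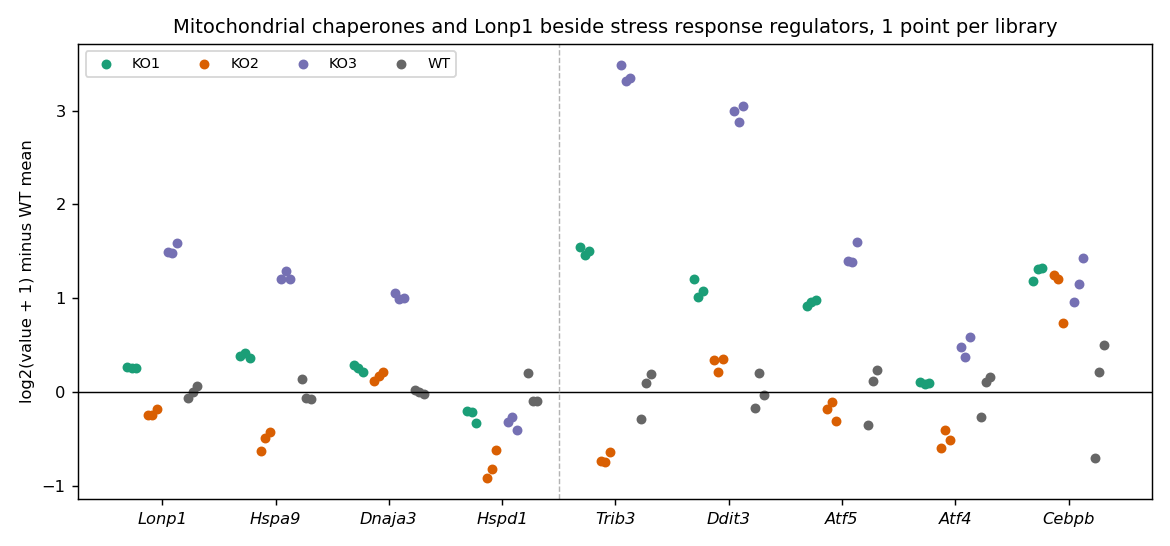
Log2(value + 1) minus the WT mean (vertical axis) for Lonp1, Hspa9, Dnaja3 and Hspd1 (left of the dashed line) and for the regulators Trib3, Ddit3, Atf5, Atf4 and Cebpb (right), 1 point a library. KO3 is the highest group for all of these but Hspd1 and Cebpb, and KO2 is the lowest of the clones for each.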

How the data were processed

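Per the labels' protocols, the 12 libraries were made from total RNA with random hexamers after removal of cytoplasmic ribosomal RNA. The submitters' processing notes list Salmon 0.14.1, DESeq2 1.24.0 and cutadapt, and the build GRCm38 (mm10); settings and the strandedness of counting were not given in the sources used here. The authors deposited normalized counts, a signal that is never negative, with 1 column a library (0 unused columns). At least 99.98% of each column's values were whole multiples of its smallest step (tolerance 0.02), which gave back the reads, possibly rounded estimates. The authors also deposited DESeq2 log2 fold changes and p-values per clone, per the file headers; the authors' deposited tables gave the same call for 10 of 10 genes in each clone, with log2 values within 0.0408. All but 35 of the identifiers matched GENCODE M21.

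Genes with at least 10 in at least 3 libraries were tested. For log2(value + 1), 1 limma model (version 3.58.1, R 4.3.3, trended prior variance) covered all 4 groups, with 8 residual degrees of freedom. Its two-sided p-values were adjusted by Benjamini-Hochberg across all 15073 tested genes and called under 0.05. Fold changes on this scale understate those of low genes. Partner ratios were tested by exact permutation (scipy 1.17.1). Alternatives were pseudocounts of 0.5 and 5, no filter and a filter of 50, TMM factors and quantile normalization, edgeR 4.0.16 and DESeq2 1.42.0 on recovered reads, the replicate number as a block, 2 groups only, each library left out, and subtraction of the median of up to 20 tested genes on either side. These are the nearest genes or neighbours above. Fewer than 20 were available on 1 side for Dnaja3 (38 in all) and Trap1 (30 in all). Promoter windows are RefSeq's (GRCm38.p6), matched by symbol for 8 of the 10 genes, in 9 windows; Hspa9 and Afg3l2 had no entry. Of each related list, up to 4 genes are named, those whose worst adjusted p over the 3 clones was smallest, and up to 2 with opposite calls. A gene that this rule takes is not reported here. The genes and lists were chosen with earlier results of these data known.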

Additional observations from a re-analysis of the deposited data

Results flagged for a closer look

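The clones differed from each other in 18 of 30 tests of the difference itself (limma, adjusted p under 0.05, 3 clone pairs by 10 genes), where 44.4% of all tested genes differed for KO2 minus KO1, 43.6% for KO3 minus KO1 and 53.1% for KO3 minus KO2. For KO2 minus KO1 the log2 differences were -0.90 for Hspa9, -0.54 for Hspd1, -0.48 for Lonp1, -0.41 for Hspe1, -0.24 for Afg3l2 and -0.19 for Trap1. For KO3 minus KO1 they were 1.26 for Lonp1, 0.85 for Hspa9, 0.77 for Dnaja3 and 0.20 for Trap1. For KO3 minus KO2 they were 1.75 for Lonp1, 1.75 for Hspa9, 0.85 for Dnaja3, 0.46 for Hspd1, 0.40 for Trap1, 0.37 for Hspe1, 0.20 for Clpx and 0.20 for Afg3l2. All 8 of the last set were positive, and the first set was negative throughout. Crls1 was lower in KO1 (210 ± 2.67 normalized counts) than in KO2 (349 ± 21.1) and KO3 (381 ± 23.9, SD, n = 3 each), and whether its level moves with these genes was not tested.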

How the results depend on the processing

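Over 60 values (10 genes in 6 comparisons) and 1320 alternative values that kept the test, 1285 stayed on their side of the threshold, 21 lost the call and 14 gained it. No called value changed sign, while uncalled ones did: Hspe1 in KO1 was 0.04 under quantile normalization, and Clpp in KO1 and KO2, Clpp in KO2 minus KO1 and Spg7 in KO3 minus KO2 turned when 1 library was left out. Subtracting the median of the chromosomal neighbours, a value with no test, turned the called values of Dnaja3 in KO2 minus WT to -0.10 and Afg3l2 in KO3 minus KO2 to -0.039. Uncalled values also turned: Hspe1 in KO1 (0.09), KO3 (0.03) and KO3 minus KO1 (0.05), and Afg3l2 in KO1 (-0.03) and KO3 (-0.13). So did Trap1 in KO2 (-0.24) and Spg7 in KO3 minus KO1 (-0.03) and KO3 minus KO2 (-0.10). The subtraction takes out what nearby genes share, and the cause was not tested. With only KO3 and KO1 in the fit, 7 of the 10 genes were called between them in place of 4. Leaving out 1 library at a time gave 5 to 7 called genes in KO1, 8 in KO2 and 7 to 8 in KO3 against WT, and 4 to 6 for KO3 minus KO1. Hspd1 in KO1 lost its call in 10 alternatives, among them the loss of WT library 1 (-0.15) and quantile normalization (-0.07, adjusted p = 0.513).

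Replicate numbers did not pair the samples: deviations of same-numbered libraries correlated at -0.221 to 0.123 over 18 pairs, 2 of them over 0.1, and 3 of 12 libraries matched best with their own number. With the replicate block, 6 genes were called in KO1, 8 in KO2 and 7 in KO3, Hspd1 in KO1 being the only call of the 10 genes lost (adjusted p = 0.0658).

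With 3 libraries a group, 1 clone behind each KO group and WT library 1 standing apart, small changes (Hspd1 and Spg7 in KO1, Clpx in KO3 minus KO2) depend on single libraries. The SE of Clpp, 0.17, was the widest of the 10 genes.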
